A study of Mus musculus with 7 samples.

Results

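The mitochondrial ribosomal proteins were taken as the genes whose symbol is Mrpl or Mrps followed by a number. The array annotation gave 74 of them a probe set of their own, of 12393 genes so represented on the array: 47 named Mrpl, for the large subunit, and 27 named Mrps, for the small subunit. Each gene was read by its probe set with the highest mean over the 7 arrays, and all 74 passed the filter on dim probe sets, as 8869 genes did in all. A further 2 genes, Mrpl30 and Mrpl53, appear only on probe sets shared with another gene and were not counted as members, and Mrps10 and Mrps27 were not analysed here.

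The tissue was the left ventricle, from male mice that had reached 21 months, hybridized to MOE430A oligonucleotide arrays at 1 per mouse. The arrays came from 3 mice labelled eNOS knockout (M4, M10 and M140), a label for the loss of endothelial nitric oxide synthase, which Nos3 encodes, and 4 wild-type mice (M158, M128, M125 and M23). The labels state an interest in the transcripts behind the heart failure of aged knockout males. They carry exercise as a keyword but give no exercise state, strain background or knockout construct.

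Mitochondrial ribosomes translate the few messenger RNAs encoded by mitochondrial DNA, all of which specify subunits of the oxidative phosphorylation complexes. Their ribosomal RNAs come from mitochondrial DNA, whereas every ribosomal protein is encoded in the nucleus, made in the cytosol and imported. The small subunit binds the messenger RNA and decodes it, and the large subunit joins the amino acids and sits against the inner membrane. Heart muscle is rich in mitochondria, and inherited defects of several of these proteins cause cardiomyopathy.

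Array medians lay between 671 and 699 intensity units, the lowest values between 86.5 and 92.3, and no member reached the upper limit of the scale on any array. Nos3, the targeted gene, had intensities of 1145, 1413 and 1135 on the arrays labelled knockout and of 791, 1163, 872 and 1058 on the wild-type arrays. Here and in every later list, knockout values stand in the order M4, M10, M140 and wild-type values in the order M23, M125, M128, M158. The knockout label thus did not go with a lower Nos3 value (log2 difference 0.35 ± 0.15 SE, limma unadjusted p = 0.0488, adjusted p = 0.42), and the labels do not say where its probes lie relative to the disruption. Knockout M140 and wild-type M128 shared a hybridization day, M4 and M10 another, M23 and M158 another, and M125 had its own, so that 1 day holds both genotypes. The atrial transcript Myl7 was far higher on M10 and M125 (17557 and 16097) than on the other arrays (356 to 2926). The ratio of the 5' to the 3' Gapdh control was lowest on wild-type M23 (0.0978) and M158 (0.34), which shared a day. On the other arrays it was 0.521 (M10) to 0.777 (M125). Nothing in the labels says how the mice were bred, and each p-value reflects array-to-array spread, which mixes differences between mice with differences between days. The recorded chip lot changed with the day, so that day and lot cannot be told apart.

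Promoters of 4 members are shown because these genes read lower in the knockout and hold matches to binding motifs of regulators of mitochondrial genes; they were picked after values and matches were seen. The sequences are RefSeq's for GRCm38.p6, each running from 250 bases before to 50 bases after the annotated start, 5′ to 3′ on the gene's strand. Capitals mark matches on either strand to the motif of nuclear respiratory factor 1 (NRF1, given by name alone), to the ETS-family motif bound by GABP (CCGGAAG) or to the YY1 motif (AAGATGGC).
Mrpl12 promoter, chr11:120484387-120484686, plus strand: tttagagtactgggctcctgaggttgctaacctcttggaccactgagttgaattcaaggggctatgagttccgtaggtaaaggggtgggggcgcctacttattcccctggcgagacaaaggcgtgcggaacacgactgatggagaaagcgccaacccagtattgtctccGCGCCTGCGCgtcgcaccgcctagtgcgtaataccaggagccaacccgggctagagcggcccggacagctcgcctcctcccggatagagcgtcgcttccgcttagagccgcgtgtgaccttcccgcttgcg
Mrps26 promoter, chr2:130563507-130563806, plus strand: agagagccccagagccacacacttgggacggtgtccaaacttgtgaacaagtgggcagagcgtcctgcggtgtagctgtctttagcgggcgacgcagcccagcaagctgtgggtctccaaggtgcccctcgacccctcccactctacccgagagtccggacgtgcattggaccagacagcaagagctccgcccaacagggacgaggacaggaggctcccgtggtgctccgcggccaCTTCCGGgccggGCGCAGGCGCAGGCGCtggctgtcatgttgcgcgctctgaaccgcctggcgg
Mrps16 promoter, chr14:20393441-20393740, minus strand: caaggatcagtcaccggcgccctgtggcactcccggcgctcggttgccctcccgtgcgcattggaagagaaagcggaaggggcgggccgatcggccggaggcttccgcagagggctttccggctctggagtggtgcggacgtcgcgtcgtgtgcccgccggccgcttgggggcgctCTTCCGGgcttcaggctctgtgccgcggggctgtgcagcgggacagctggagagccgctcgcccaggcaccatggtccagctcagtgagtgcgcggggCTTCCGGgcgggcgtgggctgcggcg
Mrpl36 promoter, chr13:73330759-73331058, plus strand: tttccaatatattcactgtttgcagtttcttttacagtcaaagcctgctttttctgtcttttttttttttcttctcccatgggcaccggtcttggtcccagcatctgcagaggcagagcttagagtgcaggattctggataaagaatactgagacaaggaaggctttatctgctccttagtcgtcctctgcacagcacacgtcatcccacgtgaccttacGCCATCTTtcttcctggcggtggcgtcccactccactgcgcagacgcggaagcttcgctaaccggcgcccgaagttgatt
Mrpl12 holds 1 NRF1 match, which begins at position -81 from the start. Mrps26 holds 2 overlapping NRF1 matches at -2 and 5 and an ETS match at -14. Mrps16 holds ETS matches at -74 and 25, and Mrpl36 a YY1 match at -30.

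Of the 74 members, 65 had a promoter in the RefSeq table, and 40 of these 65 (61.5%) held at least 1 of the 3 motifs, against 14.7% of all 32851 promoters of the same length. The ETS motif was in 24 of the 65 (36.9%, against 8.86%), the NRF1 motif in 12 (18.5%, against 4.6%) and the YY1 motif in 11 (16.9%, against 2.75%). Some members have several annotated starts, and counted by promoter the share with any motif was 56.3% of 71. Among members with an unadjusted p under 0.05 and lower values in the knockout, 3 of 17 held the ETS motif, and among the other members 21 of 48 did. The NRF1 motif was in 17.6% and 18.8% of the same members and the YY1 motif in 17.6% and 16.7%. The base composition of the compared promoters was not matched, a match describes letters only, and the member groups were not tested against each other.

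The members as a group read lower on the arrays labelled knockout. The median log2 difference (knockout minus wild type) over the 74 was -0.18, against -0.003 over all 8869 genes tested, and 63 of the 74 lay below 0, where 50.6% of all genes did. By limma's unadjusted p under 0.05, 19 members were lower and 1 was higher. That is 25.7% of the members lower, against 5.4% of all genes, and 1.35% higher, against 6.77%. The groups did not overlap for 19 members: 18 had all 3 knockout values below all 4 wild-type values, against 4.89% of all genes, and 1 had them above, against 5.29%. No member passed an adjusted p of 0.05 with limma, and neither did any other gene (0% of 8869), the smallest adjusted p of a member being 0.161. Unadjusted, 12.2% of all genes had a p under 0.05.

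**Figure D1:**
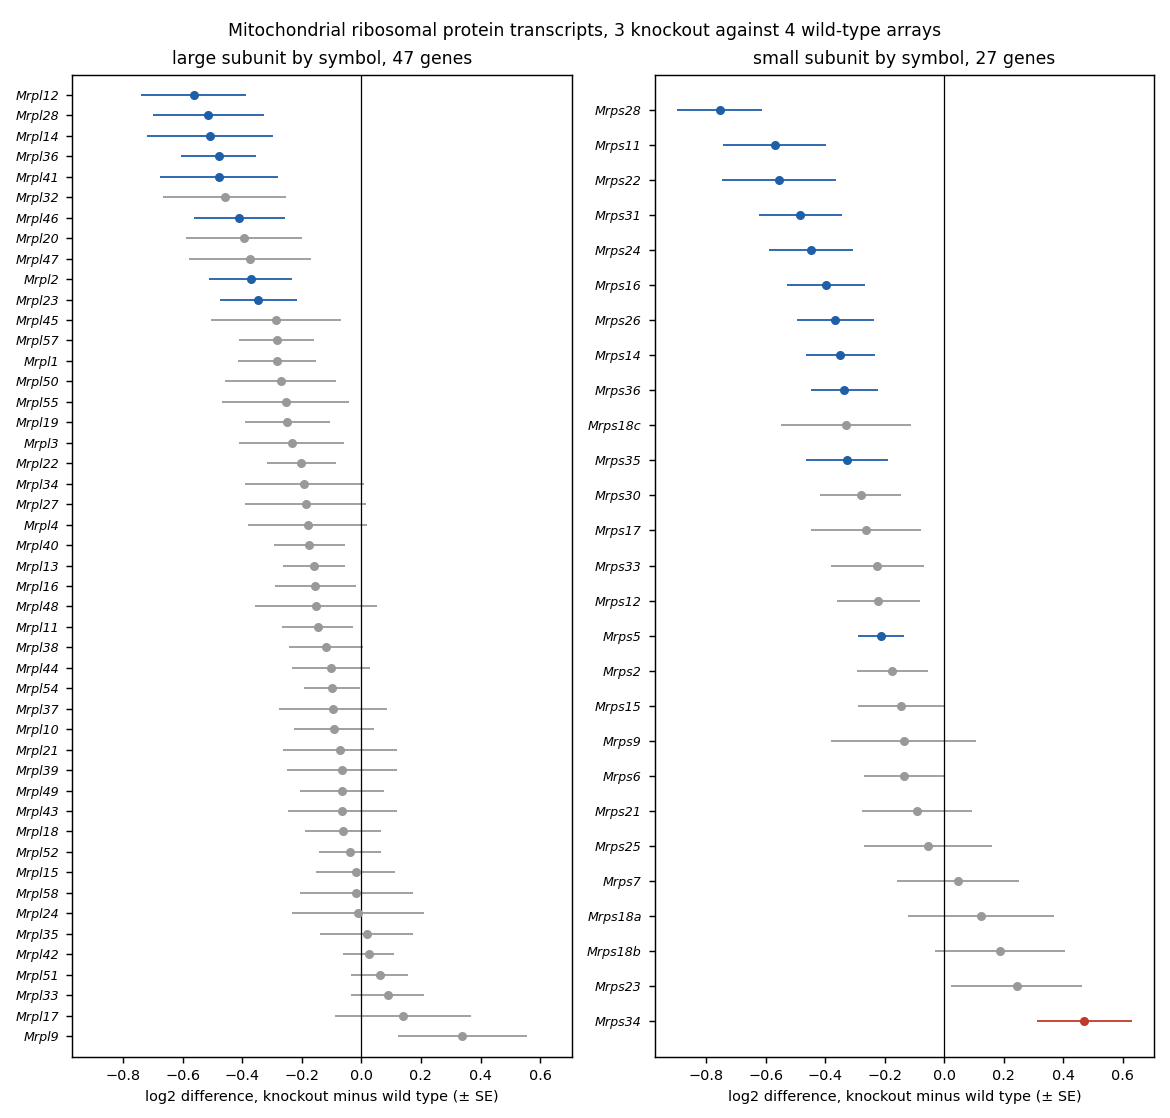
Log2 difference between 3 knockout and 4 wild-type arrays for each of the 74 members, large subunit left and small subunit right; horizontal lines are ± 1 SE of the limma fit, and blue (lower) and red (higher) mark an unadjusted p under 0.05. Most points lie left of 0, from Mrps28 at -0.75 to Mrps34 at 0.47, the single member in red.

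Over all genes tested, 5.4% were lower and 6.77% higher at an unadjusted p under 0.05, and 50.6% lay below 0. The small subunit had the larger share of lower members. Of its 27 genes, 11 (40.7%) were lower at an unadjusted p under 0.05 and 1 was higher, with a median of -0.23 and 22 below 0. Of the 47 large-subunit genes, 8 (17%) were lower and none higher, with a median of -0.16 and 41 below 0. The medians differed by 0.066 on the log2 scale, and assigning Mrps30 and Mrps18a to the large subunit, where they sit in the ribosome, left that difference as it was. Without wild-type M125 the large-subunit median was -0.092 and the small-subunit median -0.19, which are 0.10 apart. The difference between the subunits was not tested. On single arrays the large-subunit median deviation minus that of the small subunit was 0.009, 0.030 and 0.058 in the knockout and -0.059, 0.058, -0.032 and -0.049 in the wild type. All knockout arrays and wild-type M125 were above 0, and the other wild-type arrays below it.

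The lowest difference belonged to Mrps28, a small-subunit protein with a bacterial counterpart that is mutated in a combined respiratory chain deficiency. Its probe set read 3897, 4781 and 4177 on the knockout arrays and 7074, 6215, 7363 and 8349 on the wild-type arrays. The groups were well apart, with means of 4285 ± 452 (SD, n = 3) and 7250 ± 880 (SD, n = 4). On the log2 scale they differed by -0.75 ± 0.14 SE (95% interval -1.08 to -0.42; limma adjusted p = 0.161).

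Several other small-subunit members have bacterial counterparts. Mrps11, a protein of the platform that faces the large subunit, read 1124, 1141 and 1506 in the knockout and 1419, 1944, 2176 and 1973 in the wild type (log2 difference -0.57 ± 0.17). Knockout M140 lay above wild-type M23, so these groups overlapped. Mrps24, which lines the channel by which messenger RNA enters, read 6023, 5881 and 6113 in the knockout and 10038, 6994, 8177 and 7856 in the wild type (-0.45 ± 0.14). The knockout arrays were close together, M23 was highest, and a second probe set gave -0.42. Mrps16, whose loss causes fatal lactic acidosis of the newborn, read 6127, 6403 and 5996 in the knockout and 7254, 9117, 9061 and 7321 in the wild type (-0.40 ± 0.13). Mrps14, of the head of the subunit, read 7145, 6659 and 7322 in the knockout and 7784, 9055, 9683 and 9459 in the wild type (-0.35 ± 0.12). Mrps5, a protein beside the messenger RNA entrance that bears on decoding accuracy, read 682, 725 and 639 in the knockout and 797, 828, 816 and 727 in the wild type (-0.21 ± 0.077). The groups were apart for Mrps24, Mrps16, Mrps14 and Mrps5, for Mrps5 by less than 2 units between M10 and M158. A second probe set of Mrps14 gave -0.23, with overlapping groups.

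Other small-subunit members have no counterpart in bacterial ribosomes. Mrps31 read 1979, 2198 and 1950 in the knockout and 2463, 2722, 3401 and 2919 in the wild type (-0.48 ± 0.14), all knockout arrays being lower. Mrps22, mutated in a neonatal disorder with cardiomyopathy, read 2353, 1905 and 2663 in the knockout and 2886, 3050, 4496 and 3231 in the wild type (-0.55 ± 0.19). Here M128 was highest and the groups were apart. Mrps26 read 1459, 1546 and 1767 in the knockout and 1752, 2224, 2249 and 2012 in the wild type (-0.37 ± 0.13), with M140 just above M23. Mrps35 read 5118, 6455 and 4791 in the knockout and 6455, 7323, 6502 and 6941 in the wild type (-0.33 ± 0.14), with M10 and M23 tied. Mrps36, which is also known as a component of the oxoglutarate dehydrogenase complex, read 9172, 10399 and 8090 in the knockout and 11095, 12415, 11321 and 11505 in the wild type (-0.34 ± 0.11), without overlap. Leaving Mrps36 out gave 18 lower members of 73 (24.7%, against 5.4% of all genes) and a median of -0.18.

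Mrps34, which is needed for a stable small subunit and is mutated in Leigh syndrome, ran the other way. It read 5740, 5283 and 5837 in the knockout and 4002, 4748, 3195 and 4419 in the wild type, every knockout array being above every wild-type array (0.47 ± 0.16, adjusted p = 0.334 by limma). The arrays carry a further probe set shared by Nme3 and Mrps34, which gave -0.13 ± 0.13, so that the direction for this gene rests on 1 probe set.

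**Figure D2:**
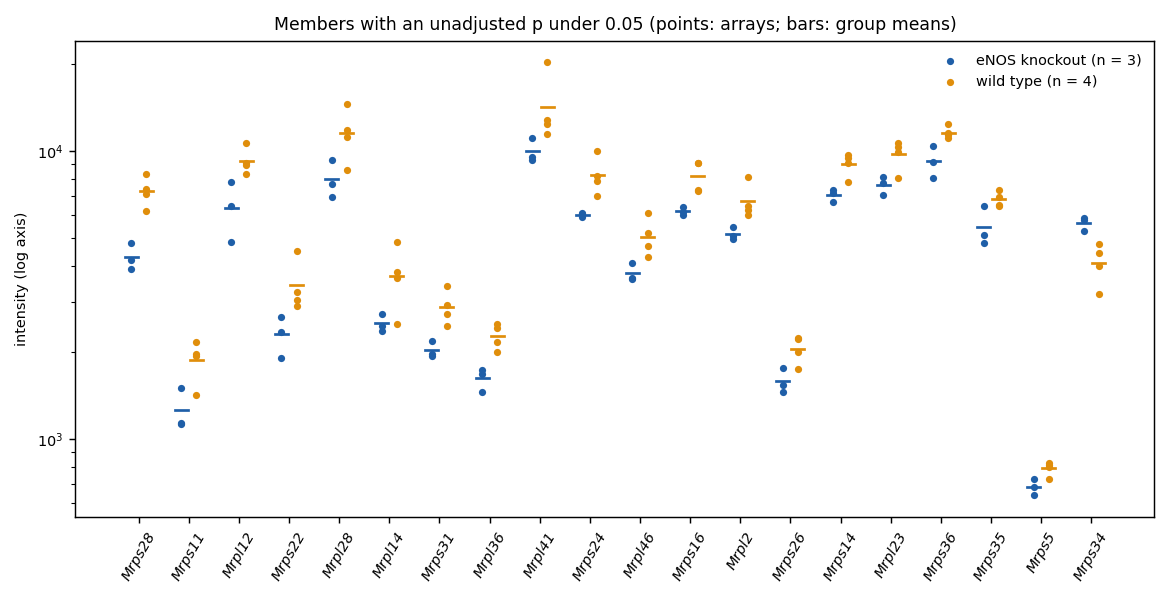
Intensities (log axis) of the 20 members with an unadjusted p under 0.05; each point is 1 array, blue for the 3 knockout and orange for the 4 wild-type arrays, and bars are group means. In Mrps28 all knockout points lie below all wild-type points and in Mrps34 above them, while in Mrps11 and Mrps35 they overlap or touch.

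In the large subunit, Mrpl12 forms the stalk that recruits translation factors and also binds the mitochondrial RNA polymerase. It read 6420, 4816 and 7780 in the knockout and 8317, 8927, 10628 and 9094 in the wild type (-0.56 ± 0.18), M10 being lowest and the groups apart. Mrpl36, a small zinc-binding protein with a bacterial counterpart, read 1744, 1454 and 1685 in the knockout and 2003, 2436, 2508 and 2168 in the wild type (-0.48 ± 0.13), also apart. Mrpl2, a protein near the peptidyl transferase centre, read 5058, 4937 and 5428 in the knockout and 5981, 6227, 6455 and 8146 in the wild type (-0.37 ± 0.14). M158 was highest, and no knockout array reached the lowest wild-type array. Mrpl23, at the exit of the nascent peptide, read 7719, 8127 and 7057 in the knockout and 9927, 10639, 8089 and 10326 in the wild type (-0.35 ± 0.13). M10 lay just above M128. Mrpl14, at the face that meets the small subunit, read 2378, 2727 and 2474 in the knockout and 2516, 4834, 3612 and 3801 in the wild type (-0.51 ± 0.21), the wild-type arrays being widely spread and M23 falling among the knockout arrays. Mrpl28 read 6950, 7690 and 9313 in the knockout and 11795, 14525, 8612 and 11174 in the wild type (-0.52 ± 0.19). M128 fell below M140 here, and the other probe sets of Mrpl28 gave -0.60 and -0.14.

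Mrpl46 and Mrpl41 have no bacterial counterpart. Mrpl46 read 3592, 3637 and 4082 in the knockout and 4271, 5173, 6076 and 4678 in the wild type (-0.41 ± 0.15), without overlap. Mrpl41 read 9523, 9340 and 11089 in the knockout and 11459, 12394, 20313 and 12812 in the wild type (-0.48 ± 0.20), the M128 value standing far above the rest. Its second probe set gave -0.61 and did not overlap either. The limma adjusted p-values of the 20 members named with their values ran from 0.161 to 0.409, and 13 of the 19 lower ones had groups that did not overlap. These 19 were chosen by p on the same arrays, which favours groups that are apart. The share among genes chosen alike over the whole array was not counted.

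The remaining 54 members lay between -0.46 and 0.34, and 44 of them lay below 0. Among them Mrpl57, Mrpl1, Mrps30, Mrps12 and Mrpl11 had all knockout values below all wild-type values, with log2 differences of -0.29, -0.28, -0.28, -0.22 and -0.15. Over all genes tested, 4.89% had groups apart in that direction. The members above 0 were 11 in all: Mrps34, Mrpl9 (0.34), Mrps23 (0.24), Mrps18b (0.19), Mrpl17 (0.14), Mrps18a (0.12), Mrpl33 (0.088), Mrpl51 (0.061), Mrps7 (0.047), Mrpl42 (0.024) and Mrpl35 (0.018). Of the 74, 45 had 1 tested probe set and 29 had several. For Mrpl3, Mrpl51, Mrpl52, Mrps15 and Mrps9 the tested probe sets had opposite signs and differed by more than 0.2: they spanned -0.26 to 0.047, -0.15 to 0.061, -0.038 to 0.24, -0.14 to 0.12 and -0.18 to 0.030.

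Members with a bacterial counterpart had a median of -0.21 over 44 genes, and 12 (27.3%) were lower at p under 0.05, unadjusted, and none higher. Those without one had a median of -0.11 over 30 genes, 7 lower (23.3%) and 1 higher. Over all genes 5.4% were lower and 6.77% higher. Within the small subunit, by place in the ribosome, the order was the other way, at -0.22 over 15 with a counterpart and -0.28 over 10 without, and in the large subunit it was -0.19 over 29 and -0.10 over 20. This grouping was made after the values were seen and was not tested.

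Array by array, the median deviation of the 74 members from their own mean over the 7 arrays was -0.061 on M4, -0.14 on M10 and -0.11 on M140. It was -0.007 on M23, 0.20 on M125, 0.018 on M128 and 0.10 on M158. No knockout median reached a wild-type median, but wild-type M23 and M128 lay near 0, well below M125 and M158. Over all genes the medians stayed between -0.014 and 0.014. M125 was the highest of the 7 arrays for 30 of the 74 members, against 15.9% of all genes, and M10 was the lowest for 22, against 11.7%. M158 was the lowest for none. On M128 the members spread out more than elsewhere: the middle 50% of their deviations spanned 0.44, against 0.28 for all genes on that array, with 16 members above 0.3 and 12 below -0.3.

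**Figure D3:**
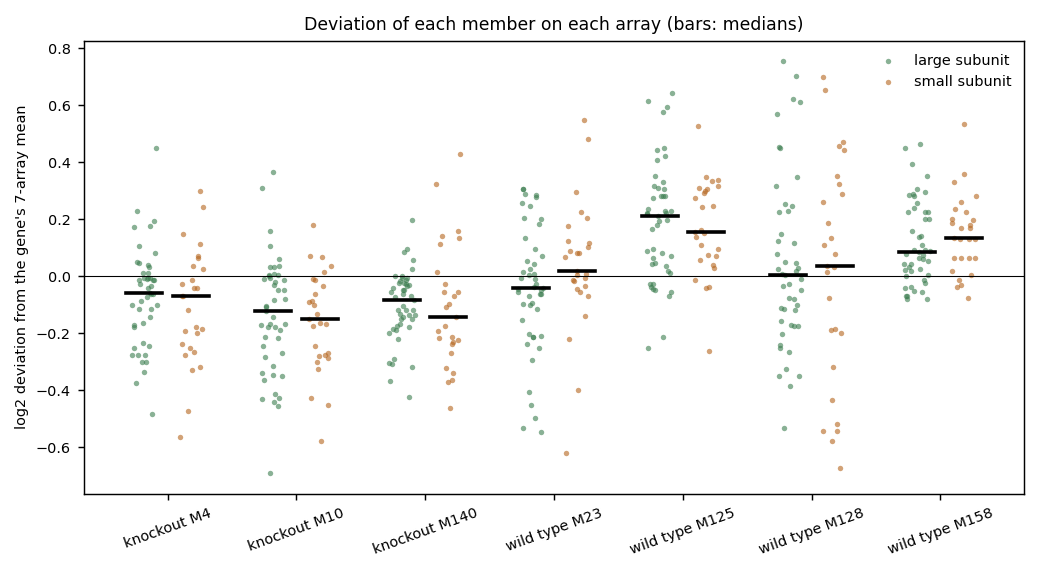
Log2 deviation of each of the 74 members from its own mean over 7 arrays (vertical axis) on each array, large subunit in green and small subunit in brown, with black bars for the medians. The 2 medians of each knockout array lie between -0.15 and -0.059, those of M125 and M158 lie above 0 and those of M23 and M128 near 0, and M128 shows the widest scatter.

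M140 and M128, hybridized on the same day, gave the only within-day comparison of the genotypes, with 1 array each and no test. The median member difference there was -0.097, with 47 of 74 members below 0, where 50.3% of all genes were. Of the 19 lower members, 18 (94.7%) were also below 0 on that day, Mrpl28 being the exception at 0.11. Their choice used the same arrays, and of the 479 genes of the whole array chosen in the same way 93.3% were below 0 there. The small subunit had a within-day median of -0.35 with 16 of 27 members below 0, and the large subunit one of -0.059 with 31 of 47 below 0. The other 5 arrays share no array with that pair, and leaving the pair out is an alternative chosen after the data were seen. On them 64 of 74 members lay below 0, and 15 were lower at an unadjusted p under 0.05 (20.3%, against 5.35% of all genes). Below 0 in both sets of arrays were 42 members (56.8%, against 27.1% of all genes).

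**Figure D4:**
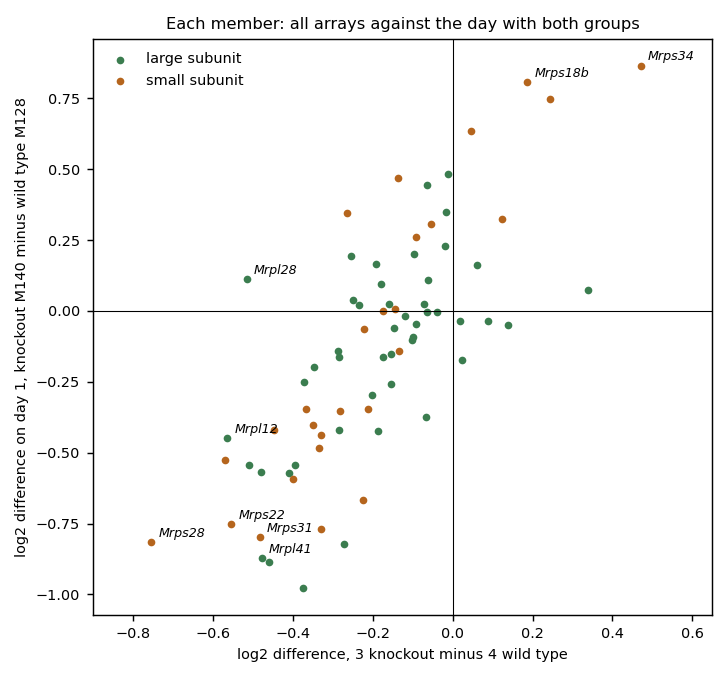
Log2 difference of each member on the shared hybridization day (M140 minus M128, vertical axis) against that over all 7 arrays (horizontal axis), which holds the same 2 arrays; green points are large-subunit and brown points small-subunit members. Of the 19 members lower at an unadjusted p under 0.05, all but Mrpl28 lie below 0 on both axes, and Mrps34 lies above 0 on both.

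The count of lower members moved with single arrays. Without knockout M4 it was 10 of 74 and without knockout M10 it was 11, with all genes at 2.9% and 4.88% lower. Without M10 and M125 together, the arrays high in atrial transcripts, 9 members (12.2%, against 4.19% of all genes) were lower and 2 were higher, and the median was -0.11. Under array weights 4 members passed an adjusted p of 0.05 by limma: Mrps28 (0.0202), Mrps31 (0.044), Mrpl28 (0.0465) and Mrps11 (0.0494). Under that setting 405 of 8869 genes passed, a share close to that of the members, at 4 of 74. It weights the arrays unevenly, from 0.373 on wild-type M128 and 0.635 on knockout M10 to 3.81 on knockout M4.

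Nuclear-encoded respiratory chain and ATP synthase genes, taken by the start of their symbols, had a smaller shift. The subunits that mitochondrial ribosomes make are not among them, and the symbol start Nduf also admits assembly factors. Of the 83 genes tested, 70 lay below 0, where 50.6% of all genes did, and the median was -0.045. At an unadjusted p under 0.05, 14 (16.9%, against 5.4% of all genes) were lower. Of these genes 28 reached the ceiling of the intensity scale on at least 1 array, where differences are held near 0. Cytosolic ribosomal proteins were taken as symbols Rpl or Rps followed by a number, which also admits kinase genes named after such a protein. This group had a median of -0.008, with 24 of 45 below 0 and 7 at that ceiling on at least 1 array. None was past an unadjusted p of 0.05 in either direction, against 12.2% of all genes. The difference of this group from the members was not tested.

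**Figure D5:**
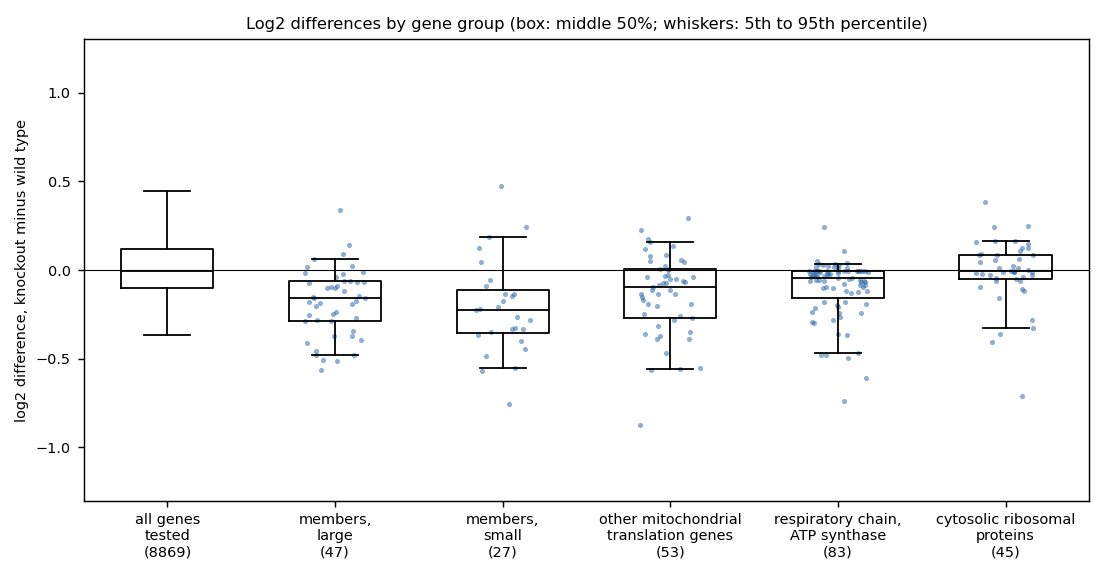
Log2 difference of each tested gene (points; none drawn for all genes) by group, with the number of genes in brackets; the line in each box is the median, the box the middle 50% and the whiskers the 5th to 95th percentile. The member medians lie at -0.16 and -0.23, and that of the group labelled cytosolic ribosomal proteins, taken by symbol, at -0.008. Ppargc1a at -2.03 lies outside the axis.

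Genes of mitochondrial translation outside the members were read from a list of 83. Of these, 59 had a probe set of their own and 53 were tested. The list also holds genes of mitochondrial DNA upkeep and transcription and regulators, which are given last and count among the 53. Of the 53, 8 (15.1%, against 5.4% of all genes) were lower at an unadjusted p under 0.05 and none higher (against 6.77%), with a median of -0.097. Among ribosome proteins with other names, Ptcd3, a small-subunit protein, was lower (-0.47 ± 0.15), while Dap3 was at 0.004. Assembly factors had 4 of 17 lower (23.5%, against the same 5.4%). Eral1, a GTPase that chaperones the small-subunit ribosomal RNA, had means of 1298 ± 261 (SD, n = 3) and 2369 ± 266 (SD, n = 4), which differ by -0.87 ± 0.16 on the log2 scale (limma adjusted p = 0.154). Oxa1l, which inserts newly made proteins into the inner membrane, was at -0.39 ± 0.097, Mterf3 at -0.56 and Tfb1m, which methylates that ribosomal RNA, at -0.36. None of the 5 tested translation factors and none of the 11 tRNA-charging genes had an unadjusted p under 0.05; 2 and 6 of them lay below 0. The recycling factor gene Mrrf was at -0.26 with all knockout values below all wild-type values, and the elongation factor Tufm at -0.035.

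Of the same list, 2 of 10 genes of mitochondrial DNA upkeep and transcription were lower (20%, against 5.4% of all genes). These were Mterf2 (-0.56) and the RNA-binding protein gene Slirp (-0.56, with overlapping groups), and Tfam was at -0.13. Among regulators the difference was largest for Ppargc1a, the coactivator PGC-1alpha that works with NRF1 and GABP at such promoters. It averaged 907 ± 215 (SD, n = 3) in the knockout and 3717 ± 544 (SD, n = 4) in the wild type, which differ by -2.03 ± 0.18 on the log2 scale (limma adjusted p = 0.0531). The tested genes of the factors whose motifs were searched had overlapping groups: Nrf1 at -0.053, Gabpa at -0.13 and Yy1 at 0.051. Gabpb1, also on the list, was too dim to be tested.

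Some markers of other cells differed between the genotypes. Of 6 macrophage markers 3 (Cd68, Csf1r and Cd163) were higher in the knockout at an unadjusted p under 0.05, where 6.77% of all genes were. The 6 summed to 23805 to 30751 in the knockout and 18622 to 27511 in the wild type. Of the lymphocyte markers Cd8a was lower at that p (log2 difference -0.24, groups overlapping), Cd3e was at -0.13, and Cd79a was too dim to be tested. Of the red cell markers Alas2 was higher (2598 to 6484 against 1649 to 2123), while Hba-a1, too dim to be tested, averaged 295 and 292. Summed fibroblast markers were 22606 to 96379 and 29136 to 45174. Of 5 atrial markers Nppa was higher on all knockout arrays (37741 to 45540, at the upper limit on M4 and M140) than on the wild-type arrays (6717 to 32820). The other 4 atrial markers summed to 4931, 34815 and 2681 in the knockout and to 3291, 42299, 12421 and 3336 in the wild type, so that these were high on M10 and M125 and next on M128. The 7 ventricular muscle markers were at or near the upper limit and summed to 310971 to 318768 and 309003 to 318852. Intensities hold background and none was 0. The part of these markers in the members' difference was not tested, and in bulk tissue fewer cells of a type and less RNA per cell cannot be told apart.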

How the data were processed

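Total RNA of 7 left ventricles was measured on MOE430A arrays, per the labels. The deposited values are intensities on a linear scale; no source used here states the authors' software, background correction or scaling. Array levels are nearly equal, and the intensities stop at an upper limit; 21 members have an equal value on at least 2 arrays. Deposited experiment sheets, used only as other information, gave hybridization days and chip lots, per the file headers.

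The 64 control probe sets were left out, leaving 22626, of which 20380 named 1 gene in the platform table, 691 several and 1555 none. The values were tested as log2(intensity + 16), which understates the change of dim genes. Testing was limited to the 13836 probe sets that exceeded the 40th percentile within an array on 3 arrays or more. The test was limma 3.58.1 in R 4.3.3 (lmFit and eBayes with trend, two-sided, no covariate), with Benjamini-Hochberg adjustment over all 13836. The fit was also tested on simulated data. By gene number, 74 of 74 members were found in the gene table of GRCm38.p6.

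Members given with every array value are those with an unadjusted p under 0.05. Of the mitochondrial translation and cell marker lists, genes past that p and Ppargc1a are named. Further list genes were chosen after their values were seen. Members and lists were chosen with earlier results of these data known. Alternatives were the offset, filter, normalization, background, trend, array weights, hybridization day as a block, the mean of all probe sets, and leaving out arrays singly or in pairs. Mouse numbers are not shared between genotypes, so nothing was paired.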

Additional observations from a re-analysis of the deposited data

Results flagged for a closer look

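The intensity of Mrpl41 on wild-type M128 was 20313, far above the other wild-type arrays at 11459 to 12812. Its gap to the nearest value was 0.847 of the range, above Dixon's critical value for 4 samples. Of 23 groups checked, 1 stood out in this way, and chance alone marks about 1 in 20.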

How the results depend on the processing

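No paired analysis was possible because the mouse numbers are not shared between the genotypes. Across 21 alternatives, the count of members lower at an unadjusted p under 0.05 ran from 9 (12.2%, against 4.19% of all genes) without M10 and M125 together to 24 (32.4%, against 10.9%) with array weights, and the members' median from -0.22 to -0.097, always below 0. Leaving out 1 array at a time gave 10 (13.5%) to 21 (28.4%) lower and 0 to 1 higher members. Of all genes, 2.9% to 6.01% were lower in these fits. The medians were -0.22 to -0.13 for all members, -0.19 to -0.092 for the large and -0.27 to -0.19 for the small subunit, 0.058 to 0.10 apart. Of the mitochondrial translation list, 5 to 9 genes were lower and 0 to 1 higher. With hybridization day as a fixed block, which reduces each value to M140 minus M128, the medians were -0.097 for the members, -0.059 for the large and -0.35 for the small subunit, 0.29 apart, with 3 members and 4 list genes higher; 14 members were lower (18.9%, against 7.33% of all genes), 9 of them shared with the fit without the block. These p-values set 1 array against 1 and take the spread from the pairs M4 and M10 and M23 and M158, which assumes that M140 and M128 vary as those do. Mrpl28 turned to 0.11. As a random block, 18 members were lower (24.3%, against 5.29% of all genes). Without M10 and M125 together, 9 members were lower and 2 higher, the median was -0.11, the subunits were 0.16 apart, and 5 list genes were lower and 1 higher. Without M23 and M158 together, the arrays of lowest Gapdh ratio, 17 members were lower (23%, against 5.68% of all genes). In that fit 58 of 74 members lay below 0, and 2 list genes were higher. Without M140 and M128 together, 0 members and 1 list gene were higher. With array weights, 4 of 74 members passed the adjusted threshold, where 405 of 8869 genes did, and 1 list gene was higher. The cause of these moves was not tested. Of the 20 members named with their values, 19 kept their direction in every alternative run. Mrps28, Mrpl36 and Mrps31 also kept an unadjusted p under 0.05 by limma in every alternative. Day as a fixed block was left aside in this, because it sets 1 array against 1. These members were chosen by p on the same arrays, which favours a kept direction, and genes chosen alike over the whole array were not followed. With 3 and 4 arrays, the number of mice limits the precision, and dim probe sets carry background that makes differences smaller.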

Other observations

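Members differed by the kind of probe set that read them, a grouping made after the values were seen and not tested. The 47 read by probe sets with the suffix _at, specific to 1 transcript group by design, had a median log2 difference of -0.24, 16 lower (34%, against 5.28% of all genes with that suffix) and none higher at an unadjusted p under 0.05. The 20 read by probe sets with the suffix _a_at, which recognise several transcripts of the same gene, had a median of -0.051, with 1 lower (Mrps16; 5%, against 5.64% of all such genes) and 1 higher (Mrps34). The remaining 7, with the less specific suffixes _s_at or _x_at, had a median of -0.22 and 2 lower. Over all genes, both kinds had a median of -0.003. On M128 the first kind of member had a median deviation of 0.077 and the second one of -0.20.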
